A study of Mus musculus with 12 samples.

Results

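The genes described here encode the proteasome, its assembly factors, its activators and its inhibitor. They were taken by name, as every symbol that begins with Psma to Psmg followed by a digit and that is listed both in the mRNA table and in the table of ribosome-protected fragments (RPF, or footprints). The rule takes 48 of the 10080 genes that both tables list. Of these, 47 belong to the proteasome system. The other is Psmc3ip, which encodes a meiotic recombination factor, shares only the letters and is kept as 1 member. All 48 passed the filters on low values in both assays, and the lowest member value was 101 reads in an mRNA library and 70 in a footprinting library. By role they are 8 alpha subunits of the 20S core, 4 non-catalytic beta subunits, 3 constitutive catalytic subunits, 3 immunoproteasome subunits, 6 ATPases and 11 non-ATPase subunits of the 19S cap, 4 assembly chaperones of the 20S core and 3 of the 19S cap, 4 activators and 1 inhibitor.

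The cells were Ba/F3, an IL-3-dependent mouse pro-B lymphoid line, carrying a retroviral human RPL10 in its WT form or with the R98S substitution found in T-cell leukaemia. In both genotypes the endogenous mouse Rpl10 was knocked down by shRNA, so WT clones carry the vector and the shRNA as well. Each culture grew from 1 cell, which makes each of the 3 R98S clones (11, 13 and 35) and 3 WT clones (28, 29 and 36) its own lineage and not a repeat of the same one. Footprints and total mRNA were sequenced from each clone after 5 min in 100 µg/ml cycloheximide, which arrests elongating ribosomes.

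The 26S proteasome degrades proteins tagged with ubiquitin. Its 20S core is a stack of rings, with outer rings of alpha subunits, which gate entry, and inner rings of beta subunits, of which Psmb5, Psmb6 and Psmb7 cut peptide bonds. In lymphoid and interferon-treated cells these can be replaced by Psmb8, Psmb9 and Psmb10, giving the immunoproteasome, which makes many of the peptides shown on MHC class I. The 19S cap binds the tagged protein, removes the tag and unfolds it with a ring of ATPases (Psmc genes), and PA28 (Psme1 and Psme2) is another cap, which opens the core without ubiquitin. Within a ring of the core, or the ring of ATPases, subunits are needed in equal numbers. Their rates of synthesis, read from footprint density, can therefore be set side by side.

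Library depth ranged from 6617457 to 23136595 reads for mRNA and from 3477723 to 10883086 for footprints, and the lowest mRNA depth, that of WT clone 28, was far from the next (20576796). That library had the highest value of the 6 for 17 of the 48 members, and the library of WT clone 29 had the lowest for 27. In footprints, WT clone 29 had the lowest value for 22. Values under the gene name Rpl10 were 2905, 1449 and 2355 normalized counts in the mRNA of R98S clones 11, 13 and 35 and 4501, 2345 and 2230.2 in WT clones 28, 29 and 36. Reads of the human transgene cannot be told apart from endogenous ones in these counts, so they do not check the knock-down. Of the markers of the line, Ptprc, Il3ra, Csf2rb, Csf2rb2, Cd79a and Cd79b had at least 10 normalized counts in all 6 mRNA libraries, and Ebf1, Pax5, Vpreb1 and Igll1 were under 10 in all of them. The 2 myeloid lists gave at least 10 in all libraries for 2 of 3 macrophage markers (Emr1 and Cd68) and for 2 of 5 mast cell and basophil markers (Cpa3 and Gata2), against 0 of 5 for T cells. Marker lists of other cell types moved with genotype. The summed mRNA of the macrophage list was 518 to 1177 normalized counts among R98S clones and 4895 to 6708 among WT clones, nearly all of it Emr1 (418 to 1046 against 4777 to 6583). The defining marker Csf1r was at 0 in the R98S and at most 3.30 in the WT libraries, and Cd68 overlapped (99.2 to 145 against 118 to 158). The mast cell and basophil list summed to 12073 to 15792 against 20365 to 26532, nearly all of it Gata2 (11145 to 15300.0 against 20183 to 26448), whereas Cpa3 lay the other way (253 to 787 against 13.4 to 174) and Kit was at 0 in all 6. The T cell list summed to 49.9 to 86.5 against 7.42 to 48.3, a narrow gap. In R98S clones most of it was Cd3d (43.8 to 73.8, against 1.65 to 29.5 in WT clones). Cd3g was highest in WT clone 28 (16.1), and Cd3e, Cd4 and Cd8a were under 10 in all 6 libraries. None of the 3 sums overlapped between genotypes, and the part of these markers in the differences below was not tested.

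Few members differed between genotypes. In limma (log2 of the normalized count plus 1, Benjamini-Hochberg over all genes tested, threshold 0.1), 1 of 48 members was higher in R98S mRNA, where 3.03% of all 11344 tested genes were called higher, and 2 were lower, where 3.91% of all genes were. In footprints 3 members were higher and 2 lower, beside 3.13% and 4.62% of the 9580 genes tested. Of the members, 5 were called in at least one assay and 43 in neither. The median log2 difference was 0.09 in mRNA and 0.10 in footprints, beside 0.01 for all genes tested in each assay, and 32 and 30 of the 48 differences were above 0. The 3 R98S values lay apart from the 3 WT values for 14 members in mRNA (12 above and 2 below WT) and for 13 in footprints (10 above and 3 below). Over all tested genes that happened for 23.5% and 25.3%.

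**Figure D1:**
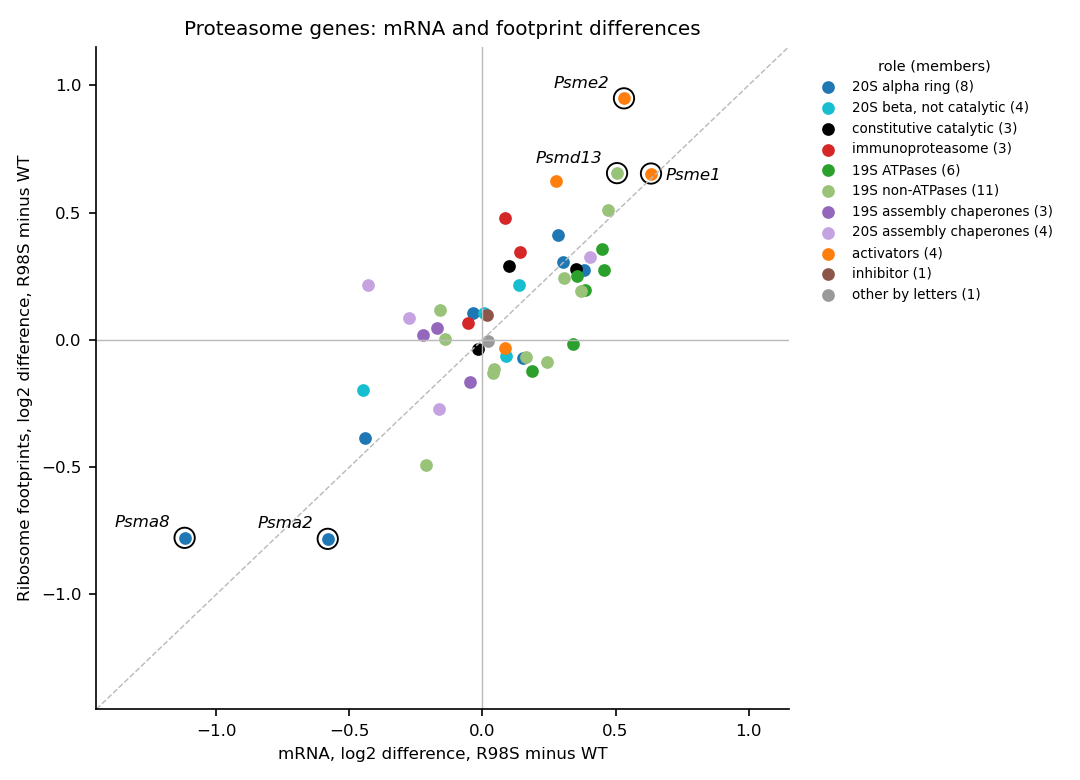
Log2 difference between R98S and WT clones in mRNA (x axis) and in footprints (y axis) for the 48 members, each point 1 gene, coloured by role, with circles around the 5 genes past the limma threshold in either assay and a dashed line where both differences are equal. Psme1, Psme2 and Psmd13 lie at the upper right, Psma2 and Psma8 at the lower left, and most members lie within 0.5 of 0 on both axes.

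As a whole, proteasome genes other than Psmc3ip took 0.637%, 0.651% and 0.630% of all mRNA reads in R98S clones 11, 13 and 35, and 0.628%, 0.508% and 0.592% in WT clones 28, 29 and 36. Their share of footprints was 1.22%, 1.26% and 1.12% in the R98S clones and 1.01%, 0.994% and 1.10% in the WT clones. The lowest R98S clone was above the highest WT clone in both assays (0.630% against 0.628% in mRNA, 1.12% against 1.10% in footprints). Both margins were smaller than the spread among WT clones. No test was made of this sum, since the genes were chosen as a group.

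Promoter sequences from RefSeq (GRCm38.p6) were available for 40 of the 48 members, as 43 windows from 250 bases before to 50 after the start. The core of the antioxidant response element (TGACNNNGC, either strand), which Nfe2l1 and Nfe2l2 bind to induce proteasome genes, was in 6 windows (14.0%, beside 12.4% of all 32851 windows), among them those of Psmb5, Psmb6 and Psmc6. The interferon-stimulated response element core (GAAA, any 2 bases, GAAA, either strand) was in 5 (11.6%, beside 3.44%), those of Psmd4, Psmd9, Psmb3, Psmg4 and Psme1. The gamma-activated site core (TTCNNNGAA, the same on both strands) was in 3 (6.98%, beside 8.30%), those of Psmd2, Psmg1 and Psmb8. These are matches of letters only, and no match of one core overlapped a match of another. A stretch upstream of any annotated exon is shown for 3 members. Psme2 had the largest rise in footprints, Psma2 is an alpha subunit that fell in both assays, and Psmb5 is a catalytic subunit with the antioxidant core, which is in capitals.
Psme2, minus strand, chr14:55591114-55591233: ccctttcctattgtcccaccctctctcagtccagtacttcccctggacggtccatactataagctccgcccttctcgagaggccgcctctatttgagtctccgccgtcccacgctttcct
Psma2, plus strand, chr13:14613166-14613239: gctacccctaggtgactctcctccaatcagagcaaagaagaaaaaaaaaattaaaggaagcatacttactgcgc
Psmb5, minus strand, chr14:54618023-54618142: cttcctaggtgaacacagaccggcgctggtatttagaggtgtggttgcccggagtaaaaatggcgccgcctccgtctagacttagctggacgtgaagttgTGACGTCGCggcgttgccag
The stretches of Psme2 and Psma2 hold none of the 3 cores.

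The PA28 subunits were higher in R98S clones. Psme1, its alpha subunit (chr14:55578123-55581529, GRCm38, plus strand), had mRNA values of 3419, 3406 and 3171 normalized counts across R98S clones 11, 13 and 35 and of 2479, 1961 and 2035 in WT clones 28, 29 and 36. Its footprints were 2838, 2934 and 2287 in the R98S clones against 1638, 1709.5 and 1747 in the WT clones. All R98S clones were above all WT clones in both assays. The log2 difference was 0.63 ± 0.16 (SE, n = 3 against 3) in mRNA (limma adjusted p = 0.0677) and 0.65 ± 0.17 in footprints (limma adjusted p = 0.0605). Without R98S clone 11 these adjusted p were 0.254 and 0.213, without R98S clone 13 they were 0.224 and 0.245 and without WT clone 36 they were 0.202 and 0.137. The mRNA call was also lost without R98S clone 35 (0.103) or WT clone 29 (0.152), and the footprint call without WT clone 28 (0.127), all with limma. In bulk samples like these, a change in the share of cells with a transcript and a change in its amount per cell cannot be told apart.

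Psme2, the PA28 beta subunit, lies beside it on the other strand (chr14:55587441-55591113). Its footprints were 1058, 959.6 and 687 normalized counts across R98S clones 11, 13 and 35 and 375, 475 and 543 in WT clones 28, 29 and 36. R98S clone 35 was the lowest of the mutants and still above every WT clone. Footprints rose by a log2 difference of 0.95 ± 0.22 (limma adjusted p = 0.0392), the largest of any member. The limma adjusted p was 0.154, 0.169 and 0.112 without R98S clone 11, R98S clone 13 and WT clone 28. Its mRNA, 1727, 1492 and 1465 in R98S against 1391, 871 and 1030.5 in WT clones, also did not overlap but did not pass the test (0.53 ± 0.20, limma adjusted p = 0.204). Per kilobase of counted coding sequence, the 2 subunits differed in footprint density. For Psme1 the mean density was 3910 among the mutants (SD 508, n = 3) and 2472 among WT clones (SD 80.6, n = 3). For Psme2 it was 1372 (SD 293) and 707 (SD 128). The mapping-quality filter dropped reads that fit several near-identical copies of a gene, and its part in this gap was not tested.

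Psme3 encodes PA28 gamma, a nuclear relative that forms its own ring. Its footprints were 1239, 1334 and 952 in R98S clones 11, 13 and 35 and 823, 623 and 838 in WT clones 28, 29 and 36, again with no overlap, and the difference of 0.62 ± 0.20 fell short of the threshold (limma adjusted p = 0.111). Its mRNA overlapped (0.28 ± 0.22). Psme4, the large activator PA200, had footprints of 749 to 1255 normalized counts in the 6 clones with full overlap, and the lowest density of all 48 members, 183 per kilobase.

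The genes of chromosome 14, where Psme1 and Psme2 lie, had a median log2 difference of 0.20 in mRNA (382 genes tested) and 0.17 in footprints (321 genes tested). With each library's chromosome median removed, Psme2 stayed past the threshold in footprints (0.78, limma adjusted p = 0.0498), and Psme1 did not in mRNA (0.45, limma adjusted p = 0.173) or footprints (0.48, limma adjusted p = 0.11). By clone, the median deviation of chromosome 14 footprints from each gene's mean over the 6 clones was 0.26, 0.12 and -0.13 for R98S clones 11, 13 and 35 and -0.08, -0.07 and -0.11 for WT clones 28, 29 and 36. Among R98S clones, clone 35 also had the lowest Psme1 and Psme2 values in both assays, all still above those of the WT clones. The part of the chromosome in these differences was not tested.

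In the 19S cap, Psmd13 (the lid subunit also called Rpn9, chr7:140881968-140898643) was the called member. Its footprints were 2346, 2182 and 2072 normalized counts across R98S clones 11, 13 and 35 and 1456, 1346 and 1386 in WT clones 28, 29 and 36. The genotypes were far apart and each was tight. Footprints rose by 0.65 ± 0.16 (limma adjusted p = 0.0475). In mRNA, WT clone 28 (2688) reached above R98S clone 13 (2585), and the difference of 0.51 ± 0.21 was not called (limma adjusted p = 0.24). Chromosome 7, too, had medians above 0 (0.19 in mRNA, 0.20 in footprints), and with them removed the footprint difference was 0.46 (limma adjusted p = 0.131). The adjusted p was 0.185, 0.176 and 0.128 in limma without R98S clone 11, R98S clone 13 and WT clone 36.

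The other 10 non-ATPase subunits of the cap were not called in either assay. Psmd6, another lid subunit, was the nearest, with footprints of 1908, 1571 and 1526 in R98S clones 11, 13 and 35 and 1209, 1072 and 1223 in WT clones 28, 29 and 36 (limma adjusted p = 0.126). It lies on chromosome 14, which had a median log2 difference of 0.17 in footprints. Psmd4, the ubiquitin receptor Rpn10, was the only subunit of the cap whose footprints were lower in every R98S clone than in every WT clone (limma adjusted p = 0.156). Chromosome 3, where Psmd4 lies, had medians below 0 (-0.29 in mRNA, -0.31 in footprints). Over the 11 subunits the footprint differences ran from -0.49 for Psmd4 to 0.65 for Psmd13, with a median of 0.00.

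The 6 ATPases, Psmc1 to Psmc6, form the unfolding ring of the cap. In mRNA all 6 differences were above 0, from 0.19 for Psmc1 to 0.46 for Psmc6 with a median of 0.37. Psmc2, Psmc3, Psmc4 and Psmc6 had no overlap between genotypes, which happened for 23.5% of all 11344 genes tested. The mRNA library of WT clone 29 had the lowest value for 27 of the 48 members. Without WT clone 29, Psmc1 fell on the other side of 0 and the other 5 did not. None of the 6 was called. The nearest was Psmc6, with 3573, 4041 and 3421 normalized counts across R98S clones 11, 13 and 35 and 2428, 2859.5 and 2755 in WT clones 28, 29 and 36 (limma adjusted p = 0.161). Psmc6 lies on chromosome 14, which had a median log2 difference of 0.20 in mRNA. With chromosome medians removed its limma adjusted p was 0.391. In footprints the same ring ran from -0.12 to 0.36 and all 6 genes overlapped. The largest was Psmc4 (0.36 ± 0.21, limma adjusted p = 0.375).

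The largest falls were in the alpha ring. Psma2 (chr13:14613240-14674236), an alpha subunit of every 20S core, had mRNA values of 2133, 1968 and 2433 normalized counts across R98S clones 11, 13 and 35 and 3531, 2891 and 3351 in WT clones 28, 29 and 36. Its footprints were 1459, 1193 and 1474 against 2301, 2254 and 2516. Every R98S clone was below every WT clone in both. Psma2 fell by 0.58 ± 0.17 on the log2 scale in mRNA (limma adjusted p = 0.0955) and by 0.78 ± 0.17 in footprints (limma adjusted p = 0.0311). The footprint call was lost without R98S clone 13 (limma adjusted p = 0.156) or WT clone 36 (limma adjusted p = 0.104). The mRNA call held in 1 of the 6 fits that left out a clone, that without R98S clone 35, and the limma adjusted p of the other 5 reached 0.322.

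Psma8 is a paralog of Psma7 best known from the testis, where it replaces Psma7 in the alpha ring. It was expressed in these lymphoid cells, with 488, 380.0 and 546 normalized counts of mRNA in R98S clones 11, 13 and 35 and 889, 1095 and 1069 in WT clones 28, 29 and 36. Footprints were 186, 167 and 173 in the R98S clones and 242, 368 and 306 in the WT clones. Again no R98S clone reached a WT clone. Psma8 fell by 1.12 ± 0.20 in mRNA (limma adjusted p = 0.0161), the largest difference of any member, and by 0.78 ± 0.21 in footprints (limma adjusted p = 0.0676). The mRNA fall passed the threshold in each of the 6 fits that left out a clone. The footprint fall did not without R98S clone 11 (0.166), R98S clone 13 (0.233), WT clone 29 (0.148) or WT clone 36 (0.171), as limma adjusted p.

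Psma7 itself was not called, with footprints of 2725, 3477 and 2322.4 in R98S clones 11, 13 and 35 and 2087, 1927 and 2321.9 in WT clones 28, 29 and 36, so that the lowest R98S clone and the highest WT clone were nearly level. Within the pair, Psma8 took 6.32%, 4.54% and 6.88% of the footprint density in R98S clones 11, 13 and 35 and 10.3%, 15.9% and 11.5% in WT clones 28, 29 and 36. The genotypes did not overlap. The widest 95% Wilson interval of these shares, which covers counting error only, spanned 3.04 percentage points.

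**Figure D2:**
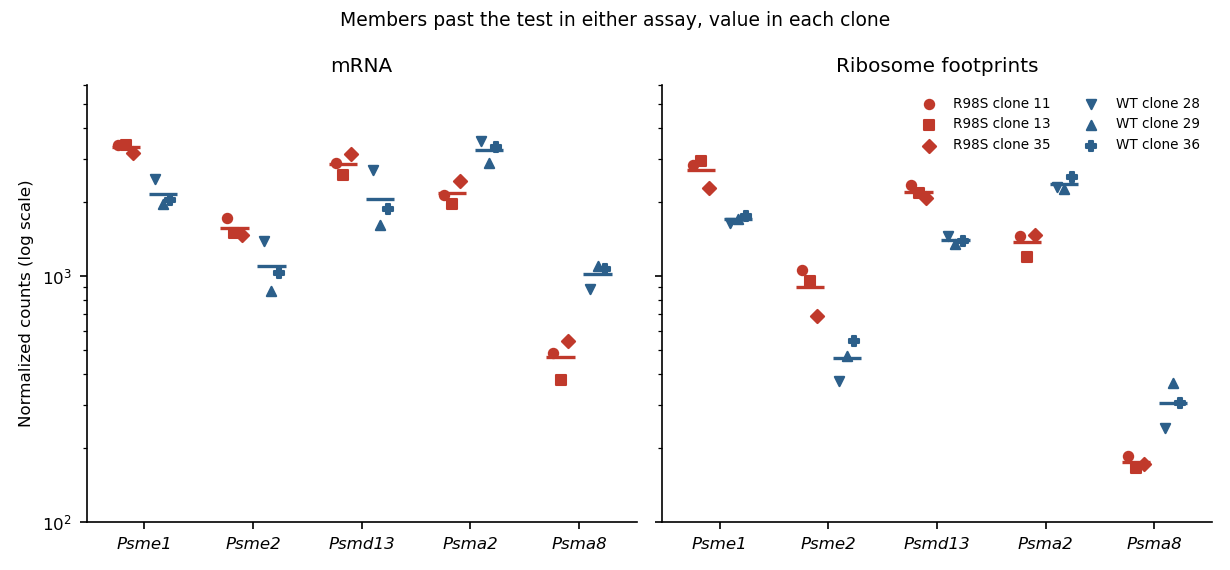
Normalized counts on a log scale in each clone for the 5 members past the limma threshold in mRNA or footprints, in mRNA (left) and footprints (right). Red symbols are R98S clones, blue symbols WT clones and lines the mean of 3 clones, and Psmd13 mRNA is the 1 panel entry where the genotypes overlap.

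Of the other alpha subunits, Psma1 and Psma6 also lay above WT in every R98S clone in both assays and were not called. In footprints the margins were small. The lowest R98S and highest WT densities were 3807 and 3802 per kilobase for Psma1, and 3465 and 3421 for Psma6. Psma5, Psma3 and Psma4 overlapped in both assays. Among the non-catalytic beta subunits, which shape the inner rings, all 4 overlapped in both assays. Psmb4 had the largest difference in mRNA (-0.45 ± 0.25), where WT clone 28 alone reached 7146 normalized counts against 3139 to 4348 in the other 5 clones, and Psmb3 in footprints (0.22 ± 0.29).

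None of the 3 constitutive catalytic subunits was called. Psmb5, the chymotrypsin-like subunit, had footprints of 2014, 2417 and 1580.2 normalized counts across R98S clones 11, 13 and 35 and 1681, 1325 and 1883 in WT clones 28, 29 and 36, a difference of 0.29 ± 0.21 with overlap. Psmb6, the caspase-like subunit, had 1345, 1698 and 1288 against 1269.6, 1093 and 1191, which did not overlap and differed by 0.28 ± 0.18 (limma adjusted p = 0.411). Psmb7, the trypsin-like subunit, had 1472, 1910.1 and 1729.6 against 1821, 1585 and 1824, a difference of -0.04 ± 0.17. In mRNA the differences were 0.10 ± 0.24, 0.35 ± 0.16 and -0.02 ± 0.16.

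The 3 immunoproteasome subunits were not called either. Psmb8, which replaces Psmb5, had footprints of 1384, 1344 and 997 in R98S clones 11, 13 and 35 and 949, 1083 and 882 in WT clones 28, 29 and 36 (0.34 ± 0.19). Psmb9, which replaces Psmb6, had 841, 893 and 769 against 476, 733 and 611, with no overlap (0.48 ± 0.20, limma adjusted p = 0.199). Psmb10, which replaces Psmb7, had 381, 464 and 353 against 409, 312 and 424 (0.07 ± 0.20). Their mRNA differences, 0.14 ± 0.21, 0.08 ± 0.22 and -0.06 ± 0.26, were near 0, and all 3 overlapped.

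In every clone the constitutive subunit of each pair had the higher footprint density, and the immunoproteasome share was well above 0. Psmb8 took 39.6%, 34.6% and 37.6% of the density of Psmb8 plus Psmb5 in R98S clones 11, 13 and 35 and 35.0%, 43.8% and 30.9% in WT clones 28, 29 and 36. WT clones hold both the highest and the lowest of these values. Psmb9 took 40.7%, 36.6% and 39.5% of its pair with Psmb6 in the R98S clones and 29.1%, 42.3% and 36.0% in the WT clones. Psmb10 was the smallest part of its pair, at 17.2% to 20.8% in R98S and 16.7% to 19.1% in WT clones. The genotype means differed by 0.727 percentage points for Psmb8 (SD 2.48 in R98S and 6.60 in WT clones), by 3.11 for Psmb9 (SD 2.11 and 6.62) and by 1.14 for Psmb10 (SD 1.90 and 1.28). All 3 pairs overlapped, and no test was made of these shares.

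**Figure D3:**
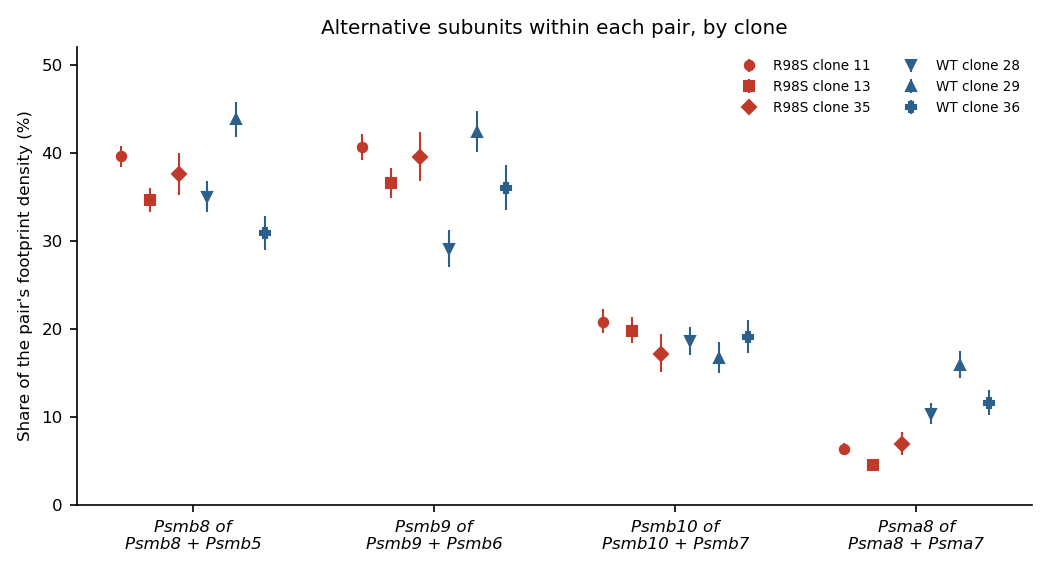
Share of footprint density, in percent, taken by the first gene of each pair in each clone, with 95% Wilson intervals for counting error. Red symbols are R98S clones and blue symbols WT clones, which overlap for the 3 immunoproteasome pairs and lie apart for Psma8 with Psma7.

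Footprint density, the normalized footprint count per kilobase of the coding sequence in which footprints were counted, differed much more between members than between genotypes. The median over the 6 clones was 2904 for Psma1 to Psma7, 2435 for Psmb1 to Psmb7, 1535 for the ATPases and 1242 for the 19S non-ATPases, beside 159 for all 9708 genes with a usable coding length. The first was Psmb4 (5184, range 4547 to 6565) and the second Psma1 (3804, range 3108 to 4215).

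The ATPase ring was the most even. From Psmc1 (1316) to Psmc2 (1819) its densities spanned 1.38-fold, and the SD of log2 density among the 6 genes was 0.21, ranging from 0.17 to 0.34 over single clones. Neighbours in that order overlapped in the 6 clones throughout. The alpha subunits Psma1 to Psma7 spanned 3.34-fold, from Psma5 (1140.1) to Psma1, with an SD of 0.73. The beta subunits Psmb1 to Psmb7 spanned 2.65-fold, from Psmb6 (1955) to Psmb4, with an SD of 0.56. Psmb8, Psmb9 and Psmb10 (medians 1354, 1258 and 520.5), which can replace Psmb5, Psmb6 and Psmb7, are left out. That span is therefore not one of ring positions. The 19S non-ATPases spanned 9.43-fold, from Psmd11 (243, range 217 to 269.9) to Psmd8 (2290.3). Psmd11, the lid subunit Rpn6, stood apart from the rest of the cap, of which the next lowest was Psmd2, a scaffold subunit, at 855. Reads that fit several near-identical copies were dropped by the mapping-quality filter, which can lower the density of a gene that has such copies, and its part in these differences was not tested.

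Single-clone SDs of log2 density of the ATPases were 0.17 to 0.30 in R98S and 0.19 to 0.34 in WT clones, and those of the beta subunits 0.31 to 0.58 and 0.53 to 0.64. For the alpha subunits they were 0.73 to 0.94 in R98S and 0.58 to 0.72 in WT clones, and the lowest R98S value (0.729) was just above the highest WT value (0.725). Psma2 had the highest mean density of the 7 among WT clones (3671 per kilobase, SD 217) and a middle one among the mutants (2143, SD 246). Mean densities of Psma1, Psma6 and Psma7 were 3348, 3148 and 3088 in WT and 4036, 3892 and 4154 in R98S clones. Those of Psma3, Psma4 and Psma5 were 1472, 2041 and 1202 in WT and 1557, 1945 and 932 in R98S clones. The part of single genes in the spread was not tested.

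**Figure D4:**
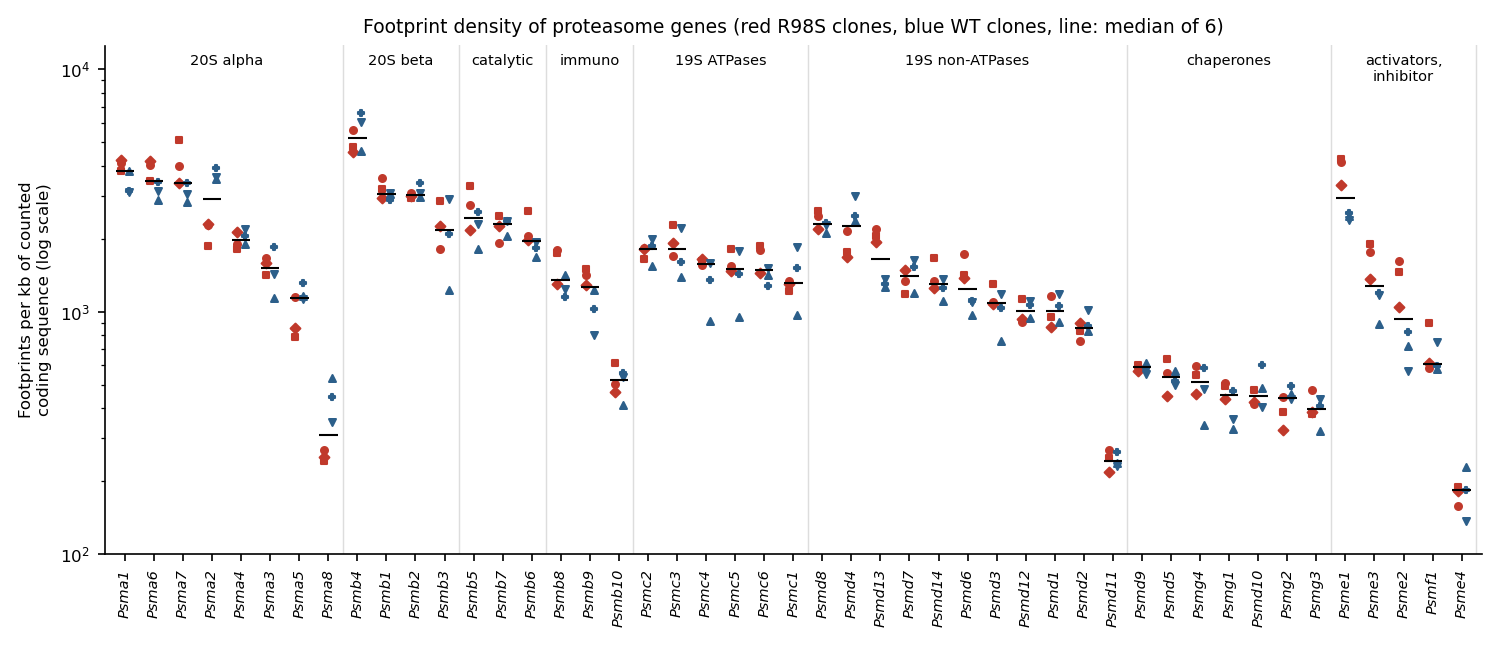
Footprints per kilobase of counted coding sequence (log scale) for 47 members in 6 clones, grouped by role and ordered within a role by the median (black line). Red symbols are R98S clones and blue symbols WT clones, and the ATPase medians lie in a narrow band from 1316 to 1819 while Psma8, Psmd11 and Psme4 are the lowest.

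Assembly chaperones, which leave the finished particle, had median footprint densities of 397 to 588 per kilobase, a range that also holds the subunit Psmb10 (520.5) and lies above Psmd11 and Psma8 and below the other subunits of the core and cap. The 4 chaperones of the core, Psmg1 to Psmg4, which build the alpha ring in pairs, had medians of 397 (Psmg3) to 514 (Psmg4) per kilobase, and the 3 of the cap, Psmd5, Psmd9 and Psmd10, had 449.9 (Psmd10) to 588 (Psmd9). None of the 7 was called in either assay and all overlapped in both. Psmg1 footprints were 408, 399.8 and 351 normalized counts across R98S clones 11, 13 and 35 and 291, 264 and 378 in WT clones 28, 29 and 36 (0.32 ± 0.20). Psmg4 had the largest mRNA difference of them (-0.43 ± 0.25), with 524 normalized counts in WT clone 28 against 251 to 346 in the other clones. Psmd9 had the largest mRNA difference of the cap chaperones (-0.22 ± 0.20) and Psmd10, also known as gankyrin, the largest in footprints (-0.16 ± 0.20). Psmf1, the inhibitor PI31, had footprints of 437 to 674 normalized counts in the 6 clones, and Psmc3ip had 81.9 to 141. For both genes the ranges of the genotypes overlapped.

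Dividing the footprint value of a gene by its mRNA value within a clone gave its translation efficiency (TE). None of the 48 members was called (limma, 0.0221% of 9043 genes called), and 0 members had an unadjusted p under 0.05, beside 710 of all 9043 genes. Of the other tools, DESeq2 with an interaction term called 0 too, and limma with a weight per clone called 1, higher, where it called 416 of all 9043 genes higher and 380 lower. Of the 48 differences, 24 were above 0. R98S and WT clones lay apart for 7 members, 6 of them below WT, beside 14.8% of all genes tested.

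All 6 TE differences of the ATPases were below 0, from -0.36 for Psmc2 to -0.09 for Psmc4, in each of the 14 fits that were run. For Psmc2 the ratio was 0.896, 0.958 and 0.953 in R98S clones 11, 13 and 35 and 1.37, 1.12 and 1.12 in WT clones 28, 29 and 36, with no overlap (limma adjusted p = 0.653). Psmc1 also did not overlap (0.495, 0.486 and 0.510 against 0.724, 0.621 and 0.521, limma adjusted p = 0.686). Psme2, whose footprint difference exceeded its mRNA difference, had ratios of 0.613, 0.643 and 0.469 in R98S clones and of 0.270, 0.545 and 0.527 in WT clones, which overlapped (limma adjusted p = 0.696). The 2 tables were normalized separately, so that a ratio has no absolute scale.

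A further 25 genes of the mRNA table, with other symbols, were chosen for acting on the proteasome or on its expression. Of these related genes, 24 were tested in mRNA and 24 in footprints. In mRNA 2 were higher and 1 lower, beside 3.03% and 3.91% of all genes tested. In footprints 0 were higher and 2 lower, beside 3.13% and 4.62% of all genes tested. Uchl5, a deubiquitinase of the 19S cap, rose in mRNA (0.61 ± 0.15, limma adjusted p = 0.0645), as did Rad23b, which ferries tagged proteins to the cap (0.66 ± 0.19, limma adjusted p = 0.0983). Both calls were lost without R98S clone 11 (limma adjusted p = 0.250 and 0.260) or R98S clone 13 (0.218 and 0.277), without WT clone 29 (0.135 and 0.185), and with chromosome medians removed (0.183 and 0.179), and further single clones left out ended one or the other: WT clone 36 for Uchl5 (0.144) and R98S clone 35 (0.189) or WT clone 28 (0.127) for Rad23b. Ubqln2, another shuttle, fell in mRNA by 0.58 ± 0.17 (limma adjusted p = 0.0996) and in footprints by 0.87 ± 0.19 (limma adjusted p = 0.0338). Its footprints were 1304, 1263 and 1448 normalized counts across R98S clones 11, 13 and 35 and 3132, 2128 and 2195 in WT clones 28, 29 and 36. Without R98S clone 11 or 13 the footprint call was lost (limma adjusted p = 0.123 and 0.148), and the mRNA call held in 1 of 6 fits that left out a clone, that without WT clone 28.

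Nlrc5, which switches on MHC class I genes and Psmb9, had footprints of 30.3, 31.0 and 5.04 normalized counts across R98S clones 11, 13 and 35 and 68.8, 60.4 and 81.7 in WT clones 28, 29 and 36, and fell by 1.96 ± 0.57 (limma adjusted p = 0.0845). That call held in 1 of 6 fits that left out a clone, that without R98S clone 35, and not with chromosome medians removed (limma adjusted p = 0.118). The value of R98S clone 35, where 1 read is worth 1.68 normalized counts, is at the floor of 3 reads set for these libraries. Nlrc5 mRNA fell by 1.66 ± 0.59 and was not called (limma adjusted p = 0.164). Tap1 and Tap2, which carry proteasome products to MHC class I and whose genes lie in the same cluster as Psmb8 and Psmb9, were not called, nor were Nfe2l1 and Nfe2l2. Pomp, a chaperone of the beta ring, was not called. TE was tested for 23 of the related genes and 0 were called. In limma 2 had an unadjusted p under 0.05, beside 710 of all 9043 genes.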

How the data were processed

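Each of 6 Ba/F3 clones gave 1 ribosome footprinting and 1 mRNA library, 12 in all, grouped by the RPL10 form in the sample labels. The authors deposited 1 table of signal values per assay, gene counts divided by DESeq2 size factors within that table. Before that, per the study's methods and processing notes, they removed ribosomal and transfer RNA reads (Bowtie2), aligned to mm10 with TopHat2 2.0.11, kept reads of mapping quality of at least 10, merged 3 technical replicates of each footprinting library and counted footprints over coding sequence without its first 15 and last 5 codons. Dividing each library by its smallest step gave whole numbers for 100% of the values above 0 (tolerance 0.001), so read counts and depth could be recovered. No column of per-sample values was left out.

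The test of genotype was limma's, in version 3.58.1 under R 4.3.3, applied to values to which 1 was added before taking log2, with a trended variance, for genes with a mean of at least 10, and TE, paired by clone, for genes with at least 10 in all 12 libraries. Benjamini-Hochberg adjustment ran over all genes tested, with the study's threshold of 0.1. A log2 difference understates the change of low genes. The 2 libraries of a clone carry its number in the labels, and their deviations from the genotype means correlated with a mean r of 0.519 (0.218 to 0.681); R98S and WT clones share no number. P-values measure the spread between clones. Gene positions and coding lengths (longest coding transcript) came from GENCODE M21 on GRCm38, matched for 48 of 48 members. Wilson intervals used scipy 1.17.1. In simulated reads with a log2 change of 1.5 in 200 genes, larger than any member's difference, limma recovered 93.0% in mRNA (11344 genes run, 22 false calls), 95.5% in footprints (9580 genes, 15 false calls) and 80.0% in TE (9043 genes, 23 false calls), and smaller changes were not simulated.

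The members, role groups and lists were chosen with earlier results of these data known. Genes named with a difference were, by rule, the 6 catalytic and immunoproteasome subunits, Psme1 to Psme3, every member past the threshold, and in each role group the largest difference per assay; Psmf1, Psmc3ip and the chaperones were named by rule too, some with levels only, and the extremes of density. Psma1, Psma6, Psma7, Psmd6, Psmc1, Psmc2, Psmd4 and Psme4 beyond that, and Pomp, Tap1 and Tap2 of the related list, were named after their values were seen. Alternatives were edgeR 4.0.16 and DESeq2 1.42.0 on recovered reads, other pseudocounts and filters, library weights, chromosome medians removed, and leaving out each clone. Polysomal RNA and proteomics were not analysed here, and 1 marker of the line is not reported here.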

Additional observations from a re-analysis of the deposited data

Results flagged for a closer look

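Psmb11, the catalytic subunit of the thymoproteasome of thymic epithelium, is listed in the mRNA table and not in the footprint table, so it is outside the comparisons above. Its mRNA was low and above the WT clones in every R98S clone. The lowest R98S clone had 6.88 normalized counts, from 8 reads in clone 35, and R98S clones 11 and 13 had 9 and 10 reads. WT clones 28, 29 and 36 had 0, 4 and 2 reads. The floor set for these libraries is 3 reads, and the difference was not tested. The other 4 symbols of the pattern in the mRNA table alone (Psmb5-ps, Psmb6-ps, Psmb7-ps2 and Psme2b) held 0 to 3 reads in each library.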

How the results depend on the processing

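The 5 called members kept their direction in all 14 alternatives. The Psma8 mRNA call held in every one, and clones whose removal ended another call are named with each gene. The limma adjusted p of Psma2 mRNA was 0.139 with no filter, 0.108 with at least 10 in every library and 0.146 with chromosome medians removed, and edgeR gave 0.104. Of the related genes, Rad23b mRNA had 0.145, 0.110 and 0.179 under the same settings and 0.104 with edgeR, and Ubqln2 mRNA 0.141 and 0.117 under both filters. With library weights 10 members were higher in mRNA, 7 in footprints and 1 in TE, where over all genes 1454, 882 and 416 were called higher against 344, 300 and 0 without weights. With chromosome medians removed, 0 members were higher in mRNA and 1 in footprints, where 283 and 250 of all genes were. In that setting 1 member was lower in mRNA, where 407 of all genes were. In footprints DESeq2 called 5 members higher (460 of all 9580 genes) and edgeR 4 (336 genes). In mRNA 1 member was lower with edgeR, with no filter and with at least 10 in every library. Over all genes 440 of 11344, 384 of 21260 and 316 of 10460 were lower in these settings.

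Leaving out a clone gave 0 to 3 members higher in mRNA (3 without WT clone 28), 1 to 2 lower in mRNA, 0 to 4 higher in footprints and 0 to 2 lower in footprints. Over all genes these fits called 130 to 491 higher and 182 to 622 lower in mRNA. In footprints they called 65 to 506 higher and 164 to 642 lower. No member was higher in footprints without R98S clone 11 or 13, where 75 or 65 of all genes were. Without WT clone 28 or 36 it was 1 member, with 151 or 125 genes, and without R98S clone 35 it was 4, with 506. No member was lower in footprints without R98S clone 13 or WT clone 36, where 164 and 231 of all genes were. The TE test paired the libraries of a clone, and with no replicate block 0 members were called, as with it. Without division by length the SD of log2 footprints among the ATPases was 0.30, against 0.21 with it.

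Some uncalled differences changed sign. With chromosome medians removed they were 0.16 for Psmb10, -0.085 for Psmb5 and 0.031 for Psmd10 in mRNA, and 0.10 for Psmb4 and 0.026 for Psmd10 in footprints, and with library weights 0.015 for Psmb10 in mRNA. Over the fits that left out a clone, mRNA differences ran from -0.30 to 0.20 for Psmb10, -0.043 to 0.40 for Psmb3, -0.089 to 0.36 for Psmb5, -0.090 to 0.028 for Psmb7, -0.013 to 0.29 for Psmb8, -0.11 to 0.28 for Psmb9 and -0.18 to 0.065 for Psmd10. Footprint differences ran from -0.070 to 0.15 for Psmb10, -0.12 to 0.50 for Psmb3, -0.12 to 0.063 for Psmb7 and -0.020 to 0.056 for Psmd9. The causes were not tested. The shallow mRNA library of WT clone 28 and footprint library of R98S clone 35 limit precision, and 3 clones a genotype limit every call.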
